A study of Homo sapiens with 6 samples.

Results

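Untreated WT/- and HAQ/- cells, clones of an ovarian cancer line that each keep a single allele of STING1, were compared, and the parent line was set beside them to show which clone lay away from it. The untreated WT/- clone held at least 2-fold more RNA of all 17 analysed NF-kB targets, and of 10 of 12 analysed interleukins and growth factors, than the untreated HAQ/- clone. Of all 15077 genes with a ratio, 7.62% were at least 2-fold higher in WT/-. Members and lists were chosen with earlier results of these data known. For every one of the 17 NF-kB targets, the parent library lay between the clones. All 20 S phase and all 22 G2/M genes analysed had a ratio of WT/- to HAQ/- below 1, against 7554 of the 15077 genes. Of these cell cycle genes 4 passed 2-fold, against 5.05% of all genes toward HAQ/-. The comparison uses 2 of the 6 libraries of the series, WT/- control and HAQ/- control, and 15126 of the 60498 genes of the table, namely those whose counts averaged at least 10 in the 6 libraries.

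The cells are of SKOV3 (SK-OV-3), a long-established line of ovarian cancer. The parent, WT/HAQ, carries a WT and an HAQ allele of STING1. The WT/- and HAQ/- lines were made from it with a lentiviral LentiCRISPRv2 vector, Cas9 and paired guides that flank the STING1 coding sequence. They passed puromycin selection and limiting dilution, so each line is 1 clone. Each of the 3 lines gave 1 control library, which received no cGAMP, and 1 library treated with cGAMP at 10 μg/mL for 30 min followed by 4 h of rest. The handling of control cells during the permeabilization step is not described in the sources used here. With 1 library per line and treatment, the allele kept, the clone and the library cannot be told apart, and no p-value was computed for the comparison of the control pair. In a bulk library, fewer cells with a transcript and less of it per cell cannot be told apart either.

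The totals ran from 12444822 to 17608467 counts per library, and those of the WT/- and HAQ/- controls were 17060710 and 17022809. Mitochondrial transcripts took 5.17% to 6.27% of the counts. All 12 SKOV3 and ovarian epithelial markers had counts in both clones, with ERBB2 the most abundant by counts at 55407 and 79376. Of 15 blood cell markers, 9 were at 0 in WT/- control and 9 in HAQ/- control. Their summed levels of 463 and 473 normalized counts came mostly from CD68, a lysosomal protein that is not specific to blood, at 409 and 455. Of 13 fibroblast and endothelial markers, 3 were at 0 in WT/- control and 2 in HAQ/- control. Their summed levels were 1412 normalized counts in the parent, 2085 in WT/- and 2100 in HAQ/-, mostly from collagen genes.

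STING1 is the membrane adaptor that binds the cyclic dinucleotide cGAMP and signals through the kinase TBK1 to IRF3, which switches on type I interferon, and also to NF-kB. NF-kB is a family of dimeric factors held in the cytoplasm by IkB proteins until an upstream kinase marks these for degradation. Its targets include chemokines, cytokines, adhesion molecules and its own inhibitors, and ovarian cancer cells are known for secreting several of them, such as interleukin 6 and CXCL8. HAQ is a common STING1 haplotype named for its amino acids at 3 positions.

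The sites of the HAQ haplotype are shown because they are what separates the alleles that the clones kept. In the coding transcript of GENCODE release 44, which has 379 codons, they are R71H, G230A and R293Q, counted from 1 at the start codon, with the WT residue given before the position and the HAQ residue after it. The reference codons, in capitals, are read from the minus strand of GRCh38 at chr5:139481492-139481494 in exon 3, chr5:139478339-139478341 in exon 6 and chr5:139477396-139477398 in exon 7. The stretch around codon 71 is joined across 2 exons. The letters are the reference's, not those of the clones. The paper sets the haplotype of the reference genome apart from WT, by a residue that lies in the G230A stretch.
STING1, R71H: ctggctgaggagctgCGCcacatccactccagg
STING1, G230A: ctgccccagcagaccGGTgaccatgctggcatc
STING1, R293Q: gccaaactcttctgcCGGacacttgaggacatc
The gene counts do not tell the alleles apart, so which allele a clone kept was taken from the labels.

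STING1 itself had 669 normalized counts in the WT/HAQ control, 353 in WT/- and 213 in HAQ/-. Both clones were thus below the parent, and HAQ/- was the lower of them. The log2 ratio of WT/- to HAQ/- was 0.73, with a 95% counting interval of 0.49 to 0.97. Log2 ratios below are those of WT/- control over HAQ/- control in normalized counts unless another pair is named, with counts under 3 set to 3. Their intervals are exact binomial ones for the share of the counts of both libraries, and they cover counting error but not the spread between cultures or clones.

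Of the 15077 genes with more than 3 counts in one of these libraries, 1149 were at least 2-fold higher in WT/-, which is 7.62%, and 761 were at least 2-fold higher in HAQ/-, which is 5.05%. At least 4-fold, the numbers were 303 and 139, and at least 16-fold they were 44 and 11. For 1763 of the genes past 2-fold, the counting interval left out a ratio of 1. Among the genes with at least 100 normalized counts in one of the libraries, 581 were at least 2-fold higher in WT/- and 266 in HAQ/-. The median log2 ratio over all genes was -0.0023. It moved by -0.1005 when libraries were scaled by total counts only, and the share of WT/- among the genes past 2-fold then went from 60.2% to 50.8%.

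**Figure D1:**
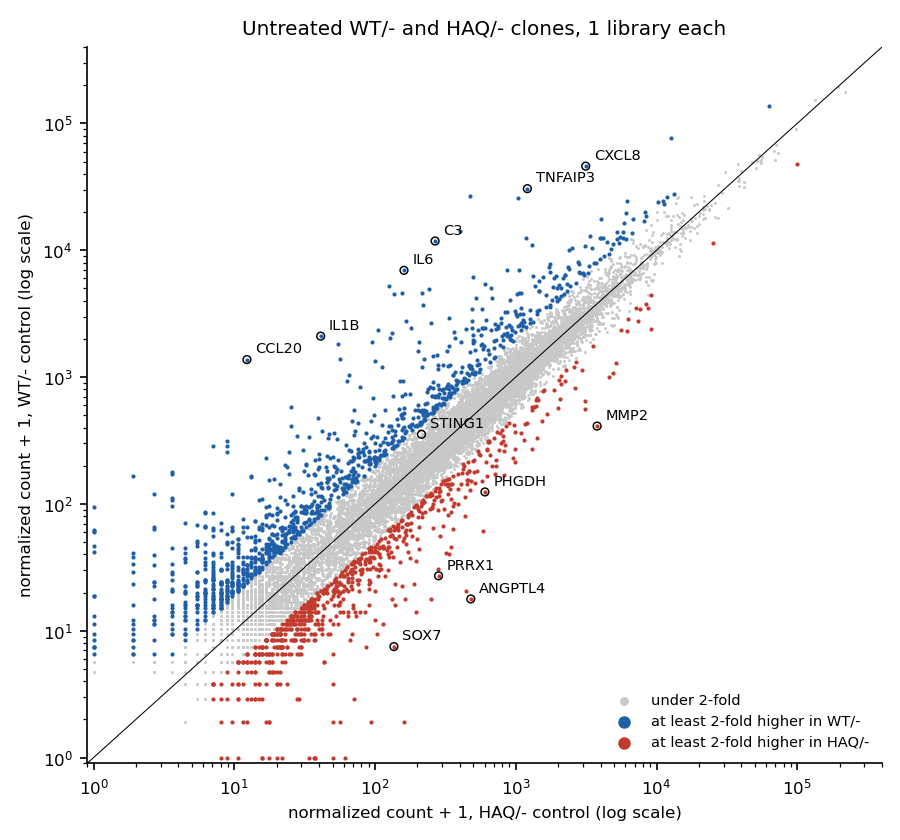
Normalized count plus 1 of each gene in WT/- control (vertical, log scale) against HAQ/- control (horizontal, log scale), with 1 library per clone and 15077 genes. Blue points are the 1149 genes at least 2-fold higher in WT/-, red points the 761 at least 2-fold higher in HAQ/-, and inflammatory genes such as CCL20, IL6 and TNFAIP3 lie far above the line of equal counts.

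WT/- lay further from the parent than HAQ/- did. A level at least 1.5-fold from that of the WT/HAQ control, in either direction, was found for 3456 of 15078 genes in WT/-, which is 22.9%, and for 2414 of 15063 in HAQ/-, which is 16%. Over the 9859 well-counted genes used for distances, the standard deviation of the log2 ratio was 0.414 between WT/- and the parent, 0.305 between HAQ/- and the parent and 0.507 between the clones. Of the 1149 genes higher in WT/-, 457 were away from the parent in WT/- alone, 281 in HAQ/- alone and 314 in both clones in opposite directions, while 73 had both clones on the same side and 24 had neither clone 1.5-fold away. Of the 761 genes higher in HAQ/-, the same counts were 392, 152, 108, 85 and 24. Both ratios use the same parent library, so they are given side by side without a test.

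**Figure D2:**
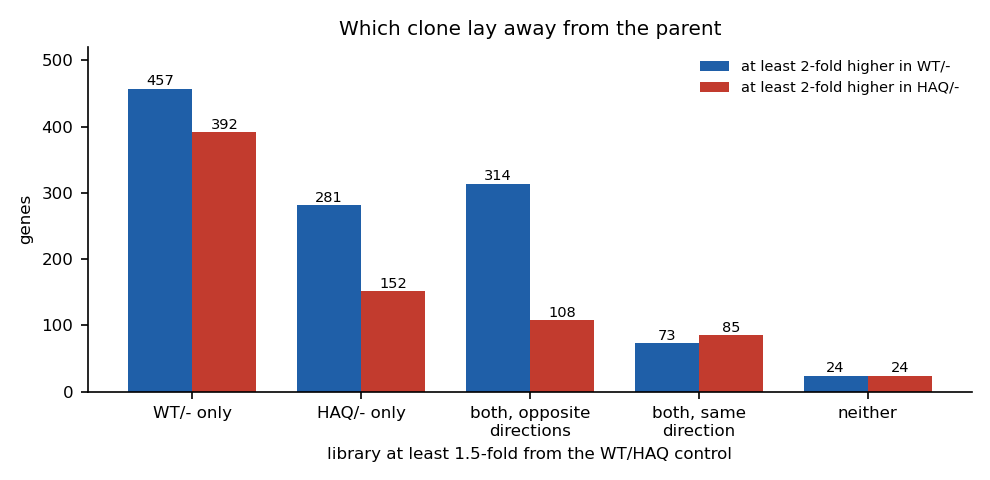
Number of genes (vertical axis) at least 2-fold higher in WT/- (blue) or in HAQ/- (red), by which clone's control library was at least 1.5-fold from the WT/HAQ control library. WT/- alone is the most frequent class in both directions, with 457 and 392 genes.

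The same clones gave a second pair of libraries, treated with cGAMP. In that pair, 1616 of 15116 genes were at least 2-fold higher in WT/-, which is 10.7%, and 821 in HAQ/-, which is 5.43%. Of the genes higher in WT/- without cGAMP, 1065 of 1147 (92.9%) lay on the same side with cGAMP and 736 (64.2%) were again at least 2-fold higher. Of the genes higher in HAQ/-, 622 of 757 (82.2%) lay on the same side and 396 (52.3%) were again past 2-fold. With at least 100 normalized counts in one of the control libraries, the shares on the same side were 98.6% and 95.5%. Past 2-fold on the opposite side with cGAMP were 25 and 41 genes.

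A fit over all 6 libraries, with treatment as a block, tested the part of the clone difference that the control and cGAMP libraries share. With edgeR's quasi-likelihood test and Benjamini-Hochberg adjustment, 1679 of 15126 genes were called higher in WT/- (11.1%) and 1201 higher in HAQ/- (7.94%). Of the genes past 2-fold in the control pair, it called 717 in the same direction among those higher in WT/- and 337 among those higher in HAQ/-. The fit has 2 residual degrees of freedom and compares 1 clone with 1 other clone. Without the WT/- control or without the WT/- cGAMP library it called 0 genes in either direction, with 1838 and 1431 genes, and 1661 and 1441 genes, at an unadjusted p under 0.05. Adjusted p-values below come from this fit of all libraries.

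All 17 analysed NF-kB targets were at least 2-fold higher in WT/- than in HAQ/-, against 7.62% of all genes, with a median log2 ratio of 3.87. The median was 1.56 for WT/- over the parent and -2.32 for HAQ/- over the parent, and each of the 17 genes was at least 1.5-fold above the parent in WT/- and at least 1.5-fold below it in HAQ/-. The clone that lay further from the parent on this list was HAQ/-, although over all genes it was WT/-. All 17 were also past 2-fold in the cGAMP pair, against 10.7% of all genes, with a median of 4.37. The edgeR fit, which includes the control pair, called all 17, against 11.1% of all genes. The list was chosen with earlier results of these data known, so its counts describe these genes and give no independent support. The lowest log2 ratio was 1.40, of RELB, and the highest 6.92, of CCL20.

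Stretches of the RefSeq promoters of 5 of these genes are shown because the kB consensus, the decamer bound by NF-kB dimers, lies in them close to the start site. The letters are the reference's, not those of the clones. Each stretch is the 150 bases before the RefSeq transcript start, 5′ to 3′ along the gene's strand, on GRCh38.p14, and capitals mark matches to the kB consensus on either strand. The positions are chr2:227813692-227813841 on the plus strand for CCL20, chr4:74099196-74099345 on the minus strand for CXCL2, chr7:22727050-22727199 on the plus strand for IL6, chr14:35404750-35404899 on the minus strand for NFKBIA and chr6:137867109-137867258 on the plus strand for TNFAIP3.
CCL20: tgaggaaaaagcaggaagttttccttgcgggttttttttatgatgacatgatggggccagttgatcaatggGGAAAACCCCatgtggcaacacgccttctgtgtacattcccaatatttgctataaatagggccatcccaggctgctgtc
CXCL2: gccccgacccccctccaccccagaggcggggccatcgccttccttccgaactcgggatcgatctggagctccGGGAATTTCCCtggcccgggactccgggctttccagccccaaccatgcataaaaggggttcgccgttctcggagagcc
IL6: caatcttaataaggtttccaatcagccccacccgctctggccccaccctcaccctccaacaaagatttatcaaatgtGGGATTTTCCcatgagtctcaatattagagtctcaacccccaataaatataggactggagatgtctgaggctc
NFKBIA: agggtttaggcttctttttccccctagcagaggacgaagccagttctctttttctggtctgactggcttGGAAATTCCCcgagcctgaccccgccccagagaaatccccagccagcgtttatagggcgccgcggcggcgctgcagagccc
TNFAIP3: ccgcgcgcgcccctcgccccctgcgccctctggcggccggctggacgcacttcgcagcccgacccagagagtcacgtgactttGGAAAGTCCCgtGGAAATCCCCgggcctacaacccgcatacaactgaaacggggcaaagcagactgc
In CXCL2 the capitals hold 2 overlapping matches, and in TNFAIP3 there are 2 separate ones. Between the match and the start lay 69 bases in CCL20, 63 in IL6 and 71 in NFKBIA.

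In the window from 250 bases before to 50 after the start, 8 of the 14 NF-kB targets with a RefSeq promoter held the kB consensus (57.1%), against 2958 of 27305 RefSeq promoters (10.8%) and 13.1% of those of the analysed genes. The list holds genes chosen as NF-kB targets, so its share does not describe the clone difference. With a RefSeq promoter, 125 of 746 genes at least 2-fold higher in WT/- held the kB consensus (16.8%). Of those at least 2-fold higher in HAQ/-, 65 of 463 did (14%). It was also in 7 of 31 ISG signature genes, 6 of 21 sterol and fatty acid genes and 6 of 40 cell cycle genes. TGANTCA, the AP-1 element, was in 1 of the 14 NF-kB targets (7.14%), against 7.76% of all promoters and 4.78% of those of the analysed genes. Of the analysed genes, 11191 of 15105 had a RefSeq promoter, too small a share for a check against them, so these values are given without a reading. Both strands were searched, and overlapping matches of different motifs were kept. A match is a description of the letters, not a site.

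CCL20, the chemokine ligand of CCR6, had the highest ratio of the control pair with counts under 3 set to 3. Without that floor CD69, at 1 count in HAQ/- control, stood higher, at a log2 ratio of 7.56. The level of CCL20 was 221 normalized counts in the WT/HAQ control, 1372 in WT/- and 11.3 in HAQ/-. The parent lay between the clones, and WT/- was 121-fold above HAQ/-, with a counting interval of 70.5 to 228 (edgeR adjusted p = 0.00433). With cGAMP, the levels were 381 in WT/- and 5.5 in HAQ/-.

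TNFAIP2, a TNF-induced gene, had 9930.4 normalized counts in the parent, 26584 in WT/- and 469 in HAQ/-. Most of this gap lay between the parent and HAQ/-, with log2 ratios to the parent of 1.42 for WT/- and -4.40 for HAQ/-. IL6, the cytokine of the acute phase response, had 851, 6939.5 and 159.6. For IL6 the clones stood at log2 3.03 above and -2.41 against the parent. ICAM1, the adhesion molecule that binds leukocyte integrins, had 1431, 5209 and 124, a log2 ratio of 5.39 (5.15 to 5.64).

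Among the remaining NF-kB targets, the following were chosen after their values had been seen. TNFAIP3 encodes A20, which removes ubiquitin from NF-kB signalling proteins, and had 10044 normalized counts in the parent, 30554 in WT/- and 1207 in HAQ/-. NFKBIA, the IkB protein that retains NF-kB in the cytoplasm, had 2346, 6961 and 1050.4. The negative regulators were therefore on the same side as the chemokines. CXCL8, a neutrophil chemokine, had 20328, 46002 and 3138. SOD2, the mitochondrial superoxide dismutase, had 37798, 76730.2 and 12766. CXCL1, CXCL2 and CXCL3 are near-identical copies whose reads the counting may have divided among them, and their log2 ratios were 3.42, 4.41 and 5.06.

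**Figure D3:**
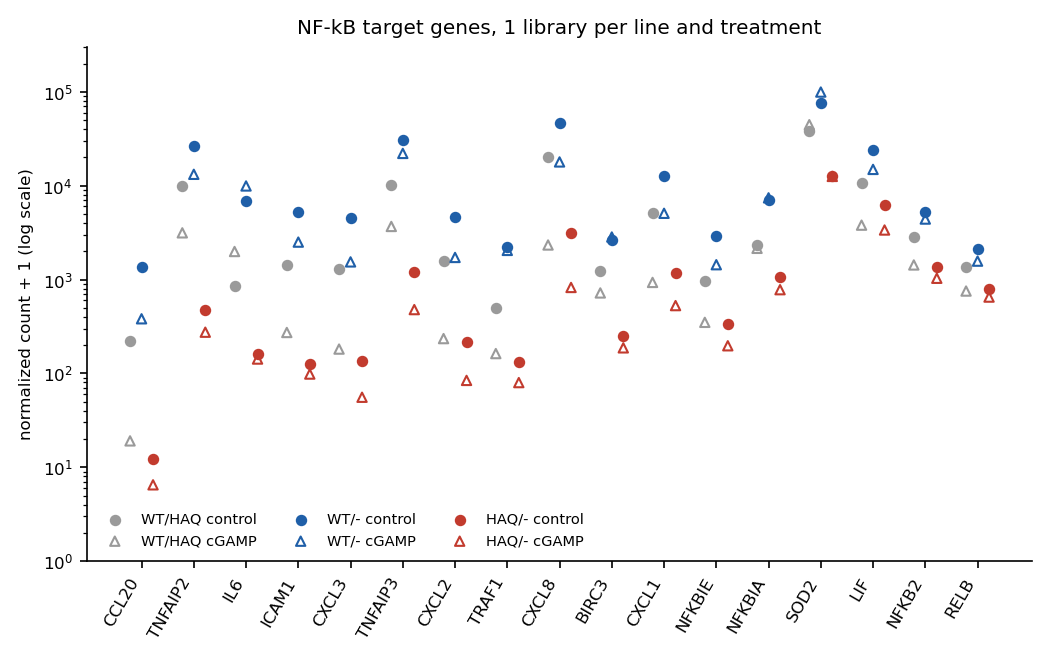
Normalized count plus 1 (vertical, log scale) of the 17 NF-kB targets in the 6 libraries, 1 library per line and treatment, with the genes in order of their control log2 ratio. Filled circles are control and open triangles cGAMP libraries, and for each gene the WT/- control (blue) lies above the WT/HAQ control (grey), which lies above the HAQ/- control (red).

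Of 20 analysed cytokines and chemokines, 12 were at least 2-fold higher in WT/- and 1 in HAQ/-, against 7.62% and 5.05% of all genes, with a median of 1.30. Interleukins and growth factors accounted for 10 of the 12, with a median of 3.15 over their 12 analysed members. Of the 8 chemokines outside the NF-kB list, 2 were past 2-fold in WT/- and 1 in HAQ/-, with a median of 0.64, and 1 of the 2 was CXCL10, at few counts. IL1B, an inflammasome-processed interleukin, had 411 normalized counts in the parent, 2101 in WT/- and 40.1 in HAQ/-, a log2 ratio of 5.71 (5.29 to 6.16, edgeR adjusted p = 0.0014). IL1A, its alarmin relative, had 3735, 14133 and 401, and both IL1 genes thus had the parent between the clones.

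CSF2, the granulocyte and macrophage colony-stimulating factor, had 38, 284 and 7.9 normalized counts, a log2 ratio of 5.18. With cGAMP, it was at 6.7 in WT/- and 0 in HAQ/-, too few to give the treated ratio. CXCL14, a chemokine of epithelia, was the cytokine on the opposite side, at 22.1, 7.5 and 32.3. TNF and CSF1, chosen after their values had been seen, had log2 ratios of 4.90 and 4.64, with 4620.4 and 25871 normalized counts in WT/- and 154 and 1039.9 in HAQ/-.

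The 12 genes with the largest log2 ratio toward WT/- among well-counted genes were CCL20, FGF5, EBI3, CD69, TNFAIP2, IL1B, IL4I1, ADAMTS9-AS1, C3, IL6, IL7R and ICAM1. Several of them had only 1 to 3 counts in HAQ/-, so their ratios are known mainly by a wide interval. FGF5, a fibroblast growth factor, had 140 counts in the parent, 190 in WT/- and 3 in HAQ/-, and the interval of the log2 ratio was 4.51 to 8.37. For FGF5 it was HAQ/- alone that lay away from the parent. EBI3, a subunit shared by interleukins 27 and 35, had 22, 185 and 3 counts, with an interval of 4.47 to 8.33.

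CD69, a lectin known as an early activation marker of lymphocytes, had 6 counts in the parent, 176 in WT/- and 1 in HAQ/-, with an interval of 5.06 to 12.87. It was almost absent from both the parent and HAQ/-. IL7R, the receptor chain for interleukin 7, had 30, 119 and 3 counts, with an interval of 3.83 to 7.71. With cGAMP, IL7R was at 1146 normalized counts in WT/- and 2.2 in HAQ/-. IL4I1, a secreted amino acid oxidase, had 23.9, 286 and 6.1 normalized counts. ADAMTS9-AS1 is an antisense transcript with 31, 126 and 2 counts, and whether the counting used strand is not given in the sources used here.

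Of 15 complement genes, 6 were at least 2-fold higher in WT/-, against 7.62% of all genes, and 0 in HAQ/-, with a median of 0.68 and 4 genes below a ratio of 1. C3, the protein on which the complement pathways converge, had 2182 normalized counts in the parent, 11817 in WT/- and 266 in HAQ/-, a log2 ratio of 5.47 (5.31 to 5.64). C1S, a protease of the classical pathway, had 122, 547 and 117, and here HAQ/- was close to the parent. CFB, the factor of the alternative pathway, had 643, 1886 and 405. Of the 6 genes, 4 were away from the parent in WT/- alone and 2 in both clones in opposite directions.

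Immediate-early genes, which respond to mitogens within minutes, were also higher in WT/-. Of 12 AP-1 and immediate-early genes, 9 were past 2-fold in WT/- and 0 in HAQ/-, against 7.62% and 5.05% of all genes, with a median of 1.44, and edgeR called 9, against 11.1%. FOS, an AP-1 subunit, had 2225, 4569 and 1054 normalized counts in parent, WT/- and HAQ/-. ATF3, a stress-inducible AP-1 partner, had 5996, 10485 and 2505. The parent lay between the clones for both.

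The 12 genes of ERK feedback did not share this direction, with 2 past 2-fold in each direction and a median of -0.02. DUSP1, a phosphatase of MAP kinases, was higher in WT/- at a log2 ratio of 1.96, from 3239 and 833 normalized counts, with the parent at 2569.5. DUSP4, a related nuclear phosphatase, was lower, at 3839.6 in the parent, 1004 in WT/- and 4567 in HAQ/- (edgeR adjusted p = 0.00152). SPRY1, an inhibitor of receptor tyrosine kinase signalling, was at 64.5, 43.9 and 89.9.

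The interferon-stimulated genes had smaller ratios at baseline than the NF-kB targets. The ISG signature is a list of 38 interferon-stimulated genes that the study took from earlier work. At baseline 8 of the 38 were at least 2-fold higher in WT/- and 0 in HAQ/-, against 7.62% and 5.05% of all genes, with a median of 0.56. The median was 0.41 for WT/- over the parent and -0.09 for HAQ/- over the parent. In the cGAMP pair 20 of the 38 were past 2-fold toward WT/-, against 10.7% of all genes. Of the 8 genes, 4 were away from the parent in WT/- alone, 1 in HAQ/- alone and 3 in both clones in opposite directions.

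CASP1, the inflammatory caspase, had 19.4, 45.7 and 4.4 normalized counts, a log2 ratio of 3.39 (2.07 to 5.08). RTP4, a chaperone of receptors, had 5, 26 and 3 counts, with an interval of 1.51 to 5.58. EPSTI1, an interferon-responsive gene, had 60.1, 156 and 46.2. These were low at baseline in all 3 lines, and with cGAMP EPSTI1 reached 1764 in WT/- and 480.5 in HAQ/-.

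Of the genes that the study measured by RT-qPCR, IFNB1, CXCL10 and CCL5 had few counts at baseline. IFNB1, the gene of interferon beta, had 5 counts in the parent, 2 in WT/- and 6 in HAQ/-, and the interval of the fold ran from 0.0352 to 1.99. CXCL10, a T cell chemokine, had 9, 9 and 4 counts, with an interval of 0.672 to 10.7. CCL5, another T cell chemokine, had 9, 15 and 15, with an interval of 0.487 to 2.35. At this depth no baseline difference between the clones was detectable for these chemokines or IFNB1.

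Genes upstream of interferon that passed 2-fold were on the side of WT/-. Of 25 DNA and RNA sensing genes, 7 were past 2-fold in WT/- and 0 in HAQ/-, against 7.62% and 5.05% of all genes. None of the 11 genes of cGAMP synthesis and handling was past 2-fold, with a median of 0.03, while 4 of 8 further sensors and adaptors and 3 of 6 kinases and factors were. IRF1, an interferon regulatory factor that NF-kB also induces, had 3252, 10982 and 1307 normalized counts. IKBKE, a kinase related to TBK1, had 74.2, 330.4 and 45.4. AIM2, a DNA sensor of the inflammasome, had 10, 10 and 3 counts, with an interval of -0.12 to 4.33 that includes no difference.

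Among 20 genes of interferon receptors and JAK-STAT signalling, 5 were past 2-fold in WT/- and 0 in HAQ/-, against 7.62% and 5.05% of all genes. SOCS3, a feedback inhibitor of cytokine receptors, had 341, 1606 and 201, a fold of 8. IRF9, a factor of interferon signalling, had 188, 545 and 190.2, so WT/- alone stood apart. IFNGR2, a chain of the interferon gamma receptor, had 1545, 2232 and 872, and here HAQ/- stood apart. Of the 20 genes of MHC class I presentation, none passed 2-fold in either direction, but 19 were above a ratio of 1, with a median of 0.39 and a range of -0.06 to 0.93.

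The study's list for pattern recognition receptor (PRR) pathways had 246 members with a ratio. It shares members with the lists above, among them IL1B, CASP1 and IRF1, so it is not a separate result. At least 2-fold higher in WT/- were 58 and in HAQ/- 1, against 7.62% and 5.05% of all genes, and in 30 of the 58 both clones were at least 1.5-fold from the parent in opposite directions. By role, 15 of 33 effectors, 8 of 17 genes of transcription, 16 of 87 signal transducers, 11 of 52 sensors, 5 of 30 regulators and 2 of 16 adaptors were among them. PTGS2, the inducible cyclooxygenase, had 31 counts in the parent, 115 in WT/- and 3 in HAQ/-, with an interval of 3.77 to 7.66. IFNA1, a member of the closely related interferon alpha family, was the gene on the opposite side, with 8, 10 and 27 counts, and its log2 ratio in the cGAMP pair had the opposite sign, at 1.02.

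**Figure D4:**
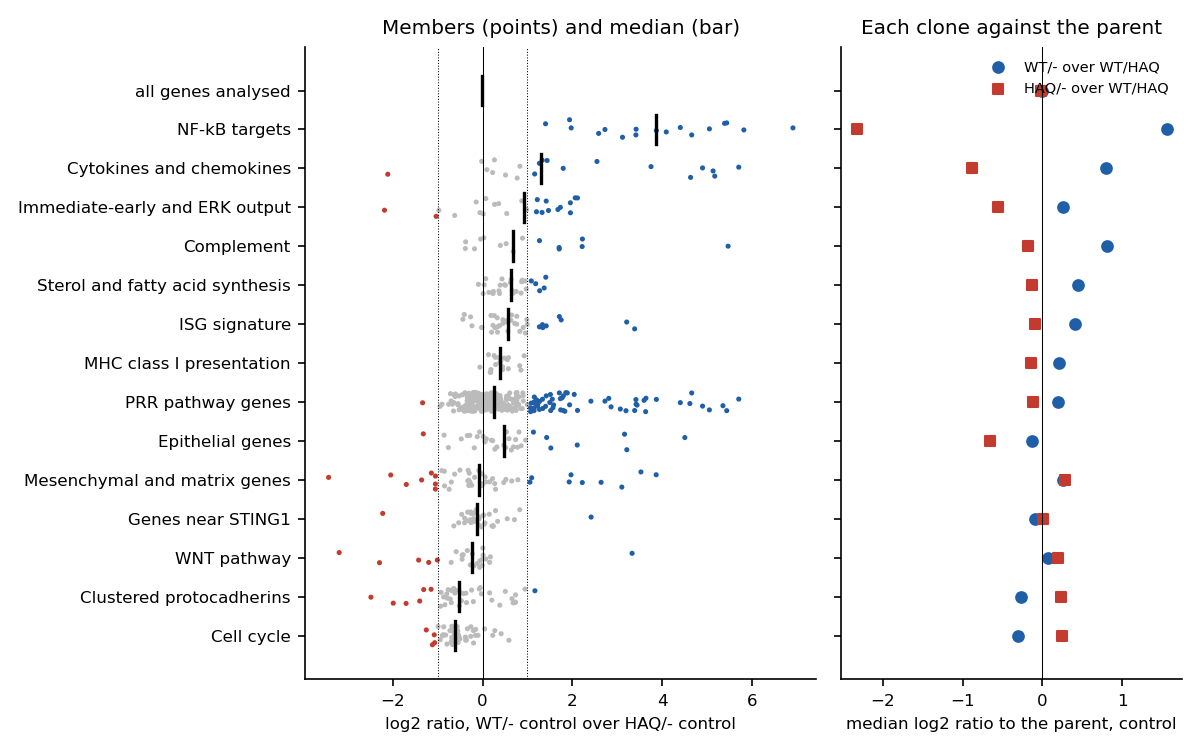
Left, log2 ratio of WT/- control over HAQ/- control for each member of 14 lists (points, blue at least 2-fold toward WT/-, red at least 2-fold toward HAQ/-) with the median of the list (bar) and, on top, the median of all genes. Right, the median log2 ratio of WT/- (circle) and HAQ/- (square) to the WT/HAQ control, at 1.56 and -2.32 for NF-kB targets and -0.30 and 0.25 for cell cycle genes.

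On the side of HAQ/-, the largest ratios among well-counted genes included those of an entry of SMIM11, ANGPTL4, C14orf132, SOX7, COL23A1, ENSG00000277701, SLC47A1, SLC14A1, PRRX1, DRAXIN and NOS1. ANGPTL4, an inhibitor of lipoprotein lipase, had 413 normalized counts in the parent, 16.8 in WT/- and 478 in HAQ/-, a log2 ratio of -4.83 (-5.60 to -4.16, edgeR adjusted p = 0.0108). HAQ/- was close to the parent and WT/- was far below both. C14orf132 had the same layout, with 329, 19.6 and 445. SMIM11 and ENSG00000277701 had opposite signs in the control and cGAMP pairs and are not read as clone differences.

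The other genes at this end mostly had the parent between the clones. SOX7, a SOX family factor of endothelium and endoderm, had 65.4, 6.5 and 135 normalized counts. PRRX1, a homeobox factor of mesenchyme, had 99, 26.1 and 282, a log2 ratio of -3.43 (-4.04 to -2.87). DRAXIN, an axon guidance protein, had 191, 59.7 and 581, and its treated libraries held 69.5 and 531.

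COL23A1, a transmembrane collagen, had 65.4 in the parent, 13.1 in WT/- and 194 in HAQ/-. SLC47A1, an exporter of organic cations, had 59.2, 8.4 and 102. NOS1, the neuronal nitric oxide synthase, had 93.7, 29.9 and 277. SLC14A1, a urea transporter, was the exception in layout, with 12.4, 10.3 and 113, so that HAQ/- alone was away from the parent.

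Genes of the integrated stress response went both ways. This response is a set of genes that the factor ATF4 drives when amino acids run short or other stresses act. Of its 17 analysed genes, 8 were above and 9 below a ratio of 1, and edgeR called 4 higher in WT/- and 8 in HAQ/-, against 11.1% and 7.94% of all genes. Among them, 6 were at least 2-fold higher in HAQ/-, against 5.05% of all genes, and 1 in WT/-, against 7.62%, and of the 6, 4 were away from the parent in WT/- alone and 2 in both clones on the same side. PHGDH, which opens serine synthesis, had 1043 normalized counts in the parent, 123 in WT/- and 603 in HAQ/-, a log2 ratio of -2.29 (-2.57 to -2.02, edgeR adjusted p = 0.00202).

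PSAT1, which acts after it, had 3347, 641 and 3087. ASNS, asparagine synthetase, had 1188, 229.6 and 960.5. All 3 enzymes were at a similar distance in the cGAMP pair, with log2 ratios of -2.05, -2.51 and -2.06. DDIT3, the factor CHOP, which is also an ATF4 target, was on the opposite side, with 892, 2141 and 493. None of the 11 unfolded protein response genes was past 2-fold, with a median of 0.06.

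Of 50 cell cycle genes analysed, 45 were below a ratio of 1, with a median of -0.61 and a range of -1.25 to 0.59. At least 2-fold higher were 4 in HAQ/-, not far from the 5.05% of all genes, and 0 in WT/-, while edgeR called 30 higher in HAQ/-, against 7.94% of all genes, and 0 higher in WT/-. All 20 S phase genes and all 22 G2/M genes were below a ratio of 1, with medians of -0.59 and -0.67, and the genes past 2-fold were all of S phase. For the S phase genes the median was -0.49 for WT/- over the parent and 0.13 for HAQ/- over the parent, and for the G2/M genes -0.20 and 0.44. Over the whole list these medians were -0.30 and 0.25.

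RRM2, a subunit of ribonucleotide reductase, had 1273, 662 and 1435 normalized counts. GINS2, a part of the replicative helicase, had 127, 64.4 and 154, and CDC45, of the same complex, had 126, 80.3 and 169. The genes past 2-fold were all away from the parent in WT/- alone. MKI67, a marker of cycling cells chosen after its values had been seen, had 3315, 3119 and 5159, so for it HAQ/- was the clone away from the parent. Of the 8 analysed cell cycle inhibitors, none passed 2-fold.

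All 18 genes of sterol synthesis and uptake were above a ratio of 1, with a median of 0.87, and 5 were at least 2-fold higher in WT/-, against 7.62% of all genes, while none of the 10 fatty acid genes passed 2-fold, with a median of 0.19. LSS, lanosterol synthase, had 1353, 3367 and 1268 normalized counts. INSIG1, a sterol-regulated brake on the SREBP factors, had 8578, 13978 and 5786. Both were away from the parent in WT/-.

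Of 35 epithelial genes analysed, 7 were at least 2-fold higher in WT/- and 1 in HAQ/-, against 7.62% and 5.05% of all genes, with a median of 0.47, and of the 7, 6 were away from the parent in HAQ/- alone. ELF3, an epithelial ETS factor that NF-kB can induce, had 666 normalized counts in the parent, 2363 in WT/- and 104 in HAQ/-, a log2 ratio of 4.51 (4.24 to 4.79). EHF, a related factor, had 246, 266 and 29.7, and KRT17, a keratin of basal and stressed epithelium, had 216, 202 and 21.8. For both, WT/- was within 1.5-fold of the parent and HAQ/- was low. CDH3, P-cadherin, was on the opposite side, at 132, 68.1 and 170.1.

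Of 12 markers of the line and of ovarian epithelium, 5 were at least 2-fold higher in WT/- and 1 in HAQ/-, against 7.62% and 5.05% of all genes, with a median of 0.59. MSLN, mesothelin, had 66.3 normalized counts in the parent, 60.7 in WT/- and 7 in HAQ/-. FOLR1, the folate receptor of ovarian epithelium, had 118, 231 and 75.9. RNA of both was lowest in HAQ/-. ERBB2, a receptor tyrosine kinase amplified in this line, was on the other side, at 67741, 51708 and 69247, as was MECOM, a zinc finger factor, at 2606, 2709 and 3015, and these were named after their values had been seen. MUC16, which carries the antigen CA125, had 33, 7 and 1 counts, and WT1, a Wilms tumour factor, had 11, 2 and 9. Of 13 fibroblast and endothelial markers, 7 were analysed and 1 passed 2-fold, KDR, a VEGF receptor, at 47.7, 56.9 and 7.9.

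Mesenchymal and matrix genes went both ways, with 9 of 47 at least 2-fold higher in WT/-, 8 in HAQ/-, against 7.62% and 5.05% of all genes, and a median of -0.08. COL6A3, a chain of collagen VI, had 35.4, 80.3 and 332 normalized counts, and SPARC, a matrix glycoprotein, had 506, 817 and 2652. Both clones were above the parent for these genes, HAQ/- by more. FBN2, a fibrillin, had 74.2, 195 and 22.7, with the parent between. COL16A1 had 2, 54 and 5 counts and POSTN, periostin, 3, 41 and 2, and both were near absent from the parent and HAQ/-. VIM, the intermediate filament vimentin, chosen after its values had been seen, had 80299, 47792 and 98892 normalized counts.

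Metalloproteases differed by member. Of 21 genes of the plasminogen system and metalloproteases, 6 were at least 2-fold higher in WT/- and 4 in HAQ/-, against 7.62% and 5.05% of all genes. MMP2, a gelatinase, had 1504 normalized counts in the parent, 409.7 in WT/- and 3782 in HAQ/-, a log2 ratio of -3.21 (-3.35 to -3.06, edgeR adjusted p = 0.0014). MMP1, a collagenase, had the opposite direction, at 1491, 12916 and 3385, and MMP7, matrilysin, was at 163, 1233 and 279. For MMP1 and MMP7 both clones were above the parent, WT/- by more. MMP13 was at 13.3, 59.7 and 20.9. ADAM12 and ADAM19, membrane-bound proteases, had log2 ratios of -2.10 and -1.46, with WT/- alone away from the parent for ADAM12 and HAQ/- alone for ADAM19.

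Of 23 integrins and laminins, 3 were at least 2-fold higher in WT/- and 2 in HAQ/-, not far from the 7.62% and 5.05% of all genes, and all 5 were integrins with WT/- alone away from the parent. ITGB3, the beta chain of the vitronectin receptor, had 544, 2284 and 364 normalized counts. ITGA4 had 10.6, 74.7 and 10.5, and ITGB2, a chain of leukocyte integrins, 59.2, 162 and 60.2. ITGA6, a laminin receptor chain, was lower in WT/-, at 7307, 2755 and 7372, and ITGA2, of the collagen receptor, was at 452, 241 and 659.

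Of 10 ERBB receptors and ligands, ERBB4 alone passed 2-fold, where 5.05% of all genes did so toward HAQ/- and 7.62% toward WT/-. ERBB4 was at 394, 131 and 387 normalized counts, so that it was lower in WT/-. Of 25 WNT pathway genes, 5 were at least 2-fold higher in HAQ/- and 1 in WT/-, against 5.05% and 7.62% of all genes, with a median of -0.22. SFRP1, a secreted WNT antagonist, had 499, 168 and 825, TCF7, a WNT-responsive factor, 119, 94.3 and 253, and NOTUM, an enzyme that inactivates WNT ligands, 30.9, 4.7 and 42.7. WNT10A, a ligand, was the gene higher in WT/-, at 134, 334 and 33.2. Antagonists and targets made up 4 of the 5 genes on the side of HAQ/-.

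Of 23 TGF-beta and BMP genes, 7 were at least 2-fold higher in WT/- and 3 in HAQ/-, against 7.62% and 5.05% of all genes. GDF15, a stress-induced ligand, had 224, 1897 and 94.2 normalized counts, a log2 ratio of 4.33. BMP2 had 411, 935 and 149, and BAMBI, a decoy receptor, 403, 728 and 175. All 3 had the parent between the clones. LTBP1, which stores latent TGF-beta in the matrix, was lower in WT/-, at 2301, 1068 and 4922, while BMP6 and TGFB3 had log2 ratios of -1.64 and -1.08.

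Of 22 death receptor and BCL2 family genes, 5 were at least 2-fold higher in WT/- and 1, the decoy receptor TNFRSF10D at a log2 ratio of -1.04, in HAQ/-, against 7.62% and 5.05% of all genes. BBC3, the BH3-only protein PUMA, had 55.7, 258 and 23.6 normalized counts, and BMF, another BH3-only protein, 174, 833 and 77.6. CASP10, an initiator caspase, had 82.2, 210 and 62.8. The parent lay between the clones for BBC3 and BMF.

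Of 16 checkpoint and surface ligands, 5 were at least 2-fold higher in WT/- and 2 in HAQ/-, against 7.62% and 5.05% of all genes. IDO1, which degrades tryptophan, had 682, 1234 and 341 normalized counts, and MICB, a ligand of the NK receptor NKG2D, 82.2, 221 and 68.9. TNFRSF14 had 22, 29 and 3 counts, with an interval of 1.68 to 5.73. ULBP1, also a ligand of NKG2D, was lower in WT/-, at 84, 13.1 and 58.5, as was NT5E, the ectonucleotidase CD73, at 5635, 3794 and 8423.

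The remaining metabolic lists had genes past 2-fold in both directions. Of 32 hypoxia and glycolysis genes, 4 were higher in WT/- and 2 in HAQ/-, not far from the 7.62% and 5.05% of all genes. ADM, adrenomedullin, had 954, 1945 and 494 normalized counts, DDIT4, an inhibitor of mTORC1, 670, 1252 and 464, and PFKFB3, a glycolytic regulator, 4836, 6430 and 3066. CA12, a carbonic anhydrase, was lower in WT/-, at 2358, 676 and 2062. Of 25 aldehyde and NRF2-linked enzymes, 4 were higher in WT/- and 1 in HAQ/-, against 7.62% and 5.05% of all genes, but the median was -0.24. In the cGAMP pair these counts were 2 and 5, against 10.7% and 5.43%, and edgeR called 3 higher in WT/- and 8 in HAQ/-, against 11.1% and 7.94%. AKR1B1, aldose reductase, had a log2 ratio of 1.79, ABCC2, a drug exporter, 1.48, and AKR1B10 1.42. AKR1C2, which shares reads with its near-identical copies AKR1C1 and AKR1C3, had -2.06.

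The lists of clustered and developmental genes were sparse. Of 43 clustered protocadherins, cell surface proteins that share long constant exons within a cluster so that reads may be divided among copies, 6 were at least 2-fold higher in HAQ/- and 1 in WT/-, against 5.05% and 7.62% of all genes, with a median of -0.52. PCDHB12, PCDHGB4 and PCDHAC1 had log2 ratios of -2.49, -1.99 and -1.70, and PCDHB6 had 1.17. Of 23 HOX genes 1 passed 2-fold in each direction, both at low counts. HOXD11 had 9 counts in WT/- and 4 in HAQ/-, and HOXD3 had 0 and 19, which makes it at least 5.92-fold higher in HAQ/- there, while in the cGAMP pair its log2 ratio was 0.70, on the opposite side. Of 39 cancer-testis genes, 2 were analysed and none passed 2-fold.

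Along the chromosomes, chromosome 13 stood apart from the others. Its 264 genes had a median log2 ratio of 0.31, with 207 of 264 (78.4%) above a ratio of 1, and the median was 0.27 for WT/- over the parent and -0.08 for HAQ/- over the parent. The other chromosomes had medians from -0.14 (chromosome 22) to 0.06 (chromosome 17). In the cGAMP pair the median of chromosome 13 was 0.44. A shift of this size is under 2-fold, and 28 of its 264 genes were at least 2-fold higher in WT/- and 8 in HAQ/-, against 7.62% and 5.05% of all genes.

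**Figure D5:**
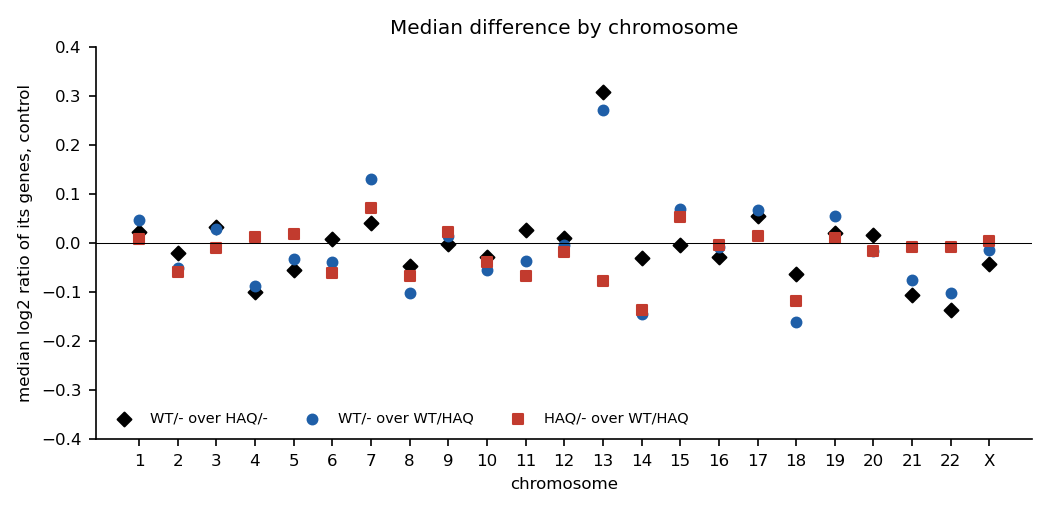
Median log2 ratio of the analysed genes on each chromosome (horizontal axis) in the control libraries for WT/- over HAQ/- (diamonds), WT/- over WT/HAQ (circles) and HAQ/- over WT/HAQ (squares), with 1 library per line. Chromosome 13 lies at 0.31, 0.27 and -0.08.

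A running median over 51 neighbouring genes passed 0.4 in 3 stretches. With genes of a mean count of at least 50 there were again 3, but all were on chromosome 13, and those of chromosomes 19 and 5 were not found. On chromosome 13 the 51-gene windows spanned 99606669 to 114337626 of GRCh38, with a median over 55 genes of 0.44. Its most abundant centre genes were COL4A2, a chain of basement membrane collagen, at a log2 ratio of 0.79, NAXD, a metabolite repair enzyme, at 0.49, CARS2, a mitochondrial tRNA synthetase, at 0.15, and RAB20, a small GTPase, at 0.74. On chromosome 19 a cluster of zinc finger genes from 19710472 to 33130542 had a median of -0.38 over 62 genes, although of its most abundant centre genes ZNF43 was at -0.39 and ZNF91, ZNF100 and ZNF676 were at 0.26, 0.10 and 0.20. On chromosome 5 the stretch was that of the clustered protocadherins, from 140245035 to 142168387, with a median of -0.24 over 73 genes. There TAF7 was at 0.07, PCDHGA4 at -0.52, PCDHGB1 at -0.60 and PCDHB8 at -0.84.

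Of 38 analysed neighbours of STING1 on chromosome 5, 14 were above and 24 below a ratio of 1, with a median of -0.11, and 1 passed 2-fold in each direction, both at low counts, against 7.62% of all genes toward WT/- and 5.05% toward HAQ/-. PSD2 had 8 counts in the parent, 20 in WT/- and 4 in HAQ/-, with an interval of 0.84 to 4.43. DND1 had 4, 4 and 20, with an interval of -4.23 to -0.65, and its cGAMP pair was on the opposite side, at 1.55.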

How the data were processed

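RNA-seq of 6 SKOV3 libraries was used, 1 per condition. Deposited values are expected counts (estimated counts per Ensembl gene, not normalized), and the submitters' processing notes name STAR, RSEM and GRCh38, without versions or order. Values were rounded to whole counts. Totals of 12444822 to 17608467 set the counting error, which is all that the 95% Clopper-Pearson intervals cover. Library sizes were scaled by TMM (edgeR 4.0.16, R 4.3.3) over the 15126 genes whose counts averaged at least 10, and normalized counts refer to the geometric mean of the scaled library sizes. Counts under 3 were set to 3. No ratio was taken where both libraries had 3 or fewer. At least 2-fold was the call between clones and 1.5-fold the distance from the parent. The test over both treatments was edgeR's quasi-likelihood F test with line and treatment as terms, at an adjusted p of 0.05.

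Genes were named by rule: STING1 and the RT-qPCR genes, the 12 largest log2 ratios each way among genes with at least 100 normalized counts, the 3 largest members each way past 2-fold in each list, neighbours of STING1 past 2-fold, and up to 4 abundant genes per chromosome stretch. Some genes that the rule names are not reported here. Others are described as chosen after their values were seen. Members and lists were chosen with earlier results of these data known. Positions come from GENCODE release 44, which holds 56434 of the 60498 identifiers, and promoters from RefSeq, matched by symbol. Alternatives were DESeq2 1.42.0 (size factors and test), total counts, other filters, floors, folds and windows, thinned libraries and each library left out. Scripts in Python 3.11.15 were tested on simulated data.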

Additional observations from a re-analysis of the deposited data

Results flagged for a closer look

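The entries of SMIM11, a small membrane protein gene of chromosome 21, had opposite directions in the untreated and the cGAMP-treated pair of clones. The entry ENSG00000273590, which the annotation types as an artifact, had a log2 ratio of WT/- over HAQ/- of -5.83 without cGAMP and 5.12 with it. The protein-coding entry ENSG00000205670 had 1.90 without and -4.50 with cGAMP. In the order WT/HAQ, WT/- and HAQ/-, the control libraries held 155, 0.9 and 160 normalized counts of the former, where the WT/- value is 1 read count, and 38.9, 143 and 38.4 of the latter. Summed over both entries, the WT/- control held 144 and the HAQ/- control 198.0 normalized counts, and the treated libraries 160 and 186. The difference between the pairs was not tested, and the entries are near-identical copies among which the counting may divide reads.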

How the results depend on the processing

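With a mean count of at least 1 in place of 10, 1784 genes were at least 2-fold higher in WT/- and 1258 in HAQ/-, and with at least 50 these were 631 and 343. Past 1.5-fold they were 2309 and 1757, and past 3-fold 491 and 267. With at least 100 normalized counts in either library, a limit chosen after seeing the data, they were 581 and 266. Of the genes higher in WT/-, those away from the parent in WT/- alone were 831 (mean of at least 1), 271 (50), 863 (1.5-fold), 112 (3-fold) and 258 (a smaller distance from the parent). In HAQ/- alone they were 137 (50), 453 (1.5-fold), 83 (3-fold) and 129 (smaller distance), and in both, opposite, 189 (50) and 628 (smaller distance). Of the genes higher in HAQ/-, those away in WT/- alone were 200 (50), 729 (1.5-fold), 135 (3-fold) and 230 (smaller distance), in HAQ/- alone 403 (1), 61 (50), 343 (1.5-fold), 21 (3-fold) and 87 (smaller distance), and in both, opposite, 165 (1), 42 (50) and 308 (smaller distance). Again past the fold with cGAMP were 437 (50), 1541 (1.5-fold) and 319 (3-fold) genes higher in WT/-, and 234, 991 and 133 higher in HAQ/-. A higher fold or filter leaves fewer genes by construction. With the smaller distance from the parent, both clones in opposite directions replaced WT/- alone as the most frequent class in both directions. Past 3-fold it did so for the genes higher in WT/-, at 265 against 112.

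With edgeR, no treatment block gave 369 genes higher in WT/- and 341 in HAQ/-. Leaving out 1 library at a time gave 0 to 1873 and 0 to 1154. The 0 came without the WT/- control and without the WT/- cGAMP library, where the unadjusted p was under 0.05 for 1838 and 1431, and for 1661 and 1441, genes. Without the HAQ/- cGAMP library it gave 1337 and 794. The cause was not tested. DESeq2 gave 1406 and 875. No paired analysis was possible because each line and treatment has 1 library, so there are no replicate numbers to pair, and the block in the edgeR fit is treatment.

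The number of chromosome stretches was 24 with a window of 31 genes and 0 with the widest window. List medians turned sign for the plasminogen system and metalloproteases (-0.0736 with total counts only, -0.0001 with a mean of at least 1), hypoxia and glycolysis (-0.10 with total counts only, -0.0222 with a mean of at least 1, -0.0033 with thinned libraries) and the fibroblast and endothelial markers (-0.0032 with total counts only, -0.11 with a mean of at least 50). Of the remaining values under other settings, 84 of the counts and medians that answer a comparison and 309 of the values for single lists or genes stayed within the limits set for a change. CCL5, with a log2 ratio of 0.0973, turned to -0.0032 with total counts only and -0.38 with thinned libraries within those limits. Past them, with the same sign, were 8 values, among them the medians of the aldehyde and NRF2-linked enzymes (-0.24 to -0.0247 with thinned libraries) and of the mesenchymal and matrix genes (-0.08 to -0.22 with a mean of at least 50). The others moved with total counts only.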
